A study of Mus musculus with 17 samples.

Results

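Granzymes and other genes of cytotoxic cells were followed in cultured mouse CD4 T cells. The 10 genes are the granzymes Gzma, Gzmb, Gzmc and Gzmk, the pore-forming protein gene Prf1, the granule membrane protein gene Nkg7, the CD94 receptor gene Klrd1, the protease inhibitor-like genes Ctla2a and Ctla2b, and the serpin gene Serpinb1a. They were taken by symbol from the gene table of the array platform and are 10 of the 18194 genes with a named probe set. They are represented by 12 probe sets with 1 gene symbol, and 1 further probe set is annotated to both Ctla2a and Ctla2b.

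Cytotoxic lymphocytes kill by releasing granules: perforin opens the way into the target cell, and granzymes, a family of serine proteases, then cleave proteins inside it. Klrd1 encodes CD94, which pairs with NKG2 receptors on natural killer (NK) cells and some T cells, and Nkg7 is needed for efficient granule release. Such genes are best known from CD8 T cells and NK cells, but CD4 T cells, regulatory T cells among them, can express granzymes after activation. Serpinb1a encodes an inhibitor of neutrophil-type serine proteases, and Ctla2a and Ctla2b encode proteins related to the propeptides of cysteine proteases.

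Transcript levels were measured on 17 Affymetrix arrays, each hybridised with RNA of cells pooled from 3 male mice aged 6 to 10 weeks. In the co-culture experiment, CD4+ spleen cells negative for Foxp3, which specifies the regulatory T cell lineage, were taken from C57BL/6-Foxp3/GFP mice. The culture lasted 5 days, with 10 T cells to 1 dendritic cell (DC), with anti-CD3 at 1 ug/ml, TGFbeta at 0.6 ng/ml and IL-2 at 5 ng/ml on days 2 and 4. The DC came from the lamina propria of the gut (LP-DC), from spleen with retinoic acid (RA, a vitamin A metabolite) added at 100 nM (Sp-DC+RA), or from spleen alone (Sp-DC). After culture the T cells were sorted by GFP into Foxp3+ and Foxp3- cells, so all 6 groups saw TGFbeta and started as Foxp3- cells. There are 2 arrays a group, and a single one for Foxp3- cells from Sp-DC+RA. In the memory experiment, CD44hiCD62L-CD25- CD4 cells of C57BL/6 mice, from spleen and lymph nodes, were mixed 2:1 with naive CD4 cells. They received anti-CD3/CD28 beads, IL-2 at 20 U/ml and TGFbeta at 10 ng/ml for 48 hours, with or without 100 nM RA, and were then re-sorted by a congenic marker, with 3 arrays a group.

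Values are log2 of the deposited robust multi-array average (RMA) intensities, and array medians lay between 5.88 and 5.98. All 7 measured CD4 T cell markers were above the array median on every array. In the NK list Ncr1, Klre1, Klra8 and Tyrobp were below it on every array, and Cd8b1 of the CD8 T cell list was too. The Foxp3 probe set read 3.88 to 4.53 in the co-culture, below the median in Foxp3+ and Foxp3- cells alike, and 7.08 to 9.14 in the memory experiment. Other regulatory T cell genes followed the sort: Izumo1r was higher in Foxp3+ cells by 1.56 ± 0.09 and Gpr83 by 2.49 ± 0.23 (log2 difference ± standard error, mean of 3 cultures). The labels number the arrays, and arrays of one number deviated together, so 2 limma fits are given. One, the planned design, ignores the numbers (unpaired), and the other (paired) has them as a blocking term. Differences below are from the paired fit unless said otherwise. Where Foxp3- cells from Sp-DC+RA enter, the block adjusts for the number of their single array. A difference can then depart from the gap between the printed levels. The words rose, fell and changed are used of genes whose adjusted p, over all genes tested, was under 0.05 when paired. How members fared unpaired is given with each comparison. With so few arrays, groups can also fail to overlap by random spread, and the share of all genes without overlap was not counted. Outside the members, no gene of the granule, receptor, regulator or serpin lists passed unpaired in any comparison, and of the cell type markers only Izumo1r and Gpr83 did, in the sort. In bulk RNA, fewer cells of a type and less RNA per cell cannot be told apart. Nothing in the labels says which mice fed which array, so p-values measure the spread between these pools.

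Testing required a probe set to exceed the median of its array on 2 or more arrays. In the co-culture 9 of the 10 genes were tested and in the memory experiment 7. Prf1 was tested in neither, with its chosen probe set at 5.31 to 5.78 and a second one at 4.39 to 5.31, below the median of every array. Serpinb1a was above the median on 3 co-culture arrays alone, all of them Sp-DC cells, and Gzmc and Serpinb1a were below it on every memory array. Klrd1 entered the memory test through the 2 arrays numbered 3. Of the granzymes outside the 10 genes, Gzmd, Gzme, Gzmf, Gzmg and Gzmn read 2.70 to 4.74 over the 17 arrays, and Gzmm stayed near the median in each group.

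Promoter windows of the members that varied together most closely are shown here, to compare the neighbouring pairs Ctla2a with Ctla2b and Gzmb with Gzmc. RefSeq (build GRCm38.p6) had windows of 300 bases around the gene start for 8 of the 10 genes. Over the 11 co-culture arrays the log2 levels of Ctla2a and Ctla2b correlated at r = 0.977 and those of Gzmb and Gzmc at r = 0.842, as a description, since arrays of one number deviated together. Ctla2a and Ctla2b lie on chromosome 13 with 1 gene between them, and Gzmb and Gzmc on chromosome 14 with 2 genes between them, neither of which codes for a protein. Not all neighbours varied together: Gzma and Gzmk, on chromosome 13 with 1 gene between them, correlated at r = 0.345. Ctla2a and Gzmb, on different chromosomes, correlated at r = 0.828. Capitals mark matches, on either strand, to the AP-1 core TGANTCA, the Runx core TGTGGT and the hexamer AGGTCA bound by retinoic acid receptors. The T-box core GGTGTGA, bound by Tbx21 and Eomes, was also searched and had no match in these 4 windows.
Ctla2a (chr13:60936576-60936875, minus strand, one of 2 windows): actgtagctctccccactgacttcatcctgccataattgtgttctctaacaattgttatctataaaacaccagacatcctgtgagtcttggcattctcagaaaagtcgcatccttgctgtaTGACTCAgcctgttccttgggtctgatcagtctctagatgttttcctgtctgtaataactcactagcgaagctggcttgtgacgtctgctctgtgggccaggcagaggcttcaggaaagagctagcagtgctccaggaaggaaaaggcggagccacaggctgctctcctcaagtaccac
Ctla2b (chr13:60897398-60897697, minus strand): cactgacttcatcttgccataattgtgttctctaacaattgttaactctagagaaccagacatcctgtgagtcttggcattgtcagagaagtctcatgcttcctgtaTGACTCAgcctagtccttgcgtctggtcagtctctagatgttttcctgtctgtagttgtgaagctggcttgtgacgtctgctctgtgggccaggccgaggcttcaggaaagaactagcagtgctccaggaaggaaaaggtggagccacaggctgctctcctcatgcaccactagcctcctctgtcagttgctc
Gzmb (chr14:56262285-56262584, minus strand): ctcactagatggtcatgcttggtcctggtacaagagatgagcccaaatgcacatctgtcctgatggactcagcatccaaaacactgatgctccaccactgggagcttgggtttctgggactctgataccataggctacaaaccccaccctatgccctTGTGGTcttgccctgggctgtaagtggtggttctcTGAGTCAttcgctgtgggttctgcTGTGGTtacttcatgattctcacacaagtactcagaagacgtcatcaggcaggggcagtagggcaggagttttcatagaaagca
Gzmc (chr14:56234608-56234907, minus strand): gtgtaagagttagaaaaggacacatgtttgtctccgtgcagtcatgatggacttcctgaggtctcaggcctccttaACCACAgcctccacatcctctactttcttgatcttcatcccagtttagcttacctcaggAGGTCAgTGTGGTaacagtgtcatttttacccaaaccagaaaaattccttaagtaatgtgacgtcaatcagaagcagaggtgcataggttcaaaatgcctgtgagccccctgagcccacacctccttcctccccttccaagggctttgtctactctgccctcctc

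The Ctla2a and Ctla2b windows aligned over 278 bases, of which 255 were identical (91.7%), and each held 1 AP-1 core match. By the same alignment the other 33 pairs of member windows shared 57.0% to 69.9% of aligned bases. Gzmb with Gzmc gave the highest of these percentages, but over 209 aligned bases, of which 146 were identical. Gzmb with the Ctla2a window shown had more identical bases, 172 of 253 aligned. The Gzmb window held 2 Runx core matches and 1 AP-1 match, and the Gzmc window held 2 Runx matches and the AGGTCA match. No matches overlapped in the 4 windows. Of all 32851 windows of this length, 7.81% held the AP-1 core, 16.8% the Runx core, 16.3% AGGTCA and 3.98% the T-box core. Over the 8 member genes with a window, the Runx core occurred in 5, the AP-1 core in 3, the T-box core in 2 (Gzmk and Nkg7) and AGGTCA in 1. These matches describe letters in the windows and are not measured binding.

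**Figure D1:**
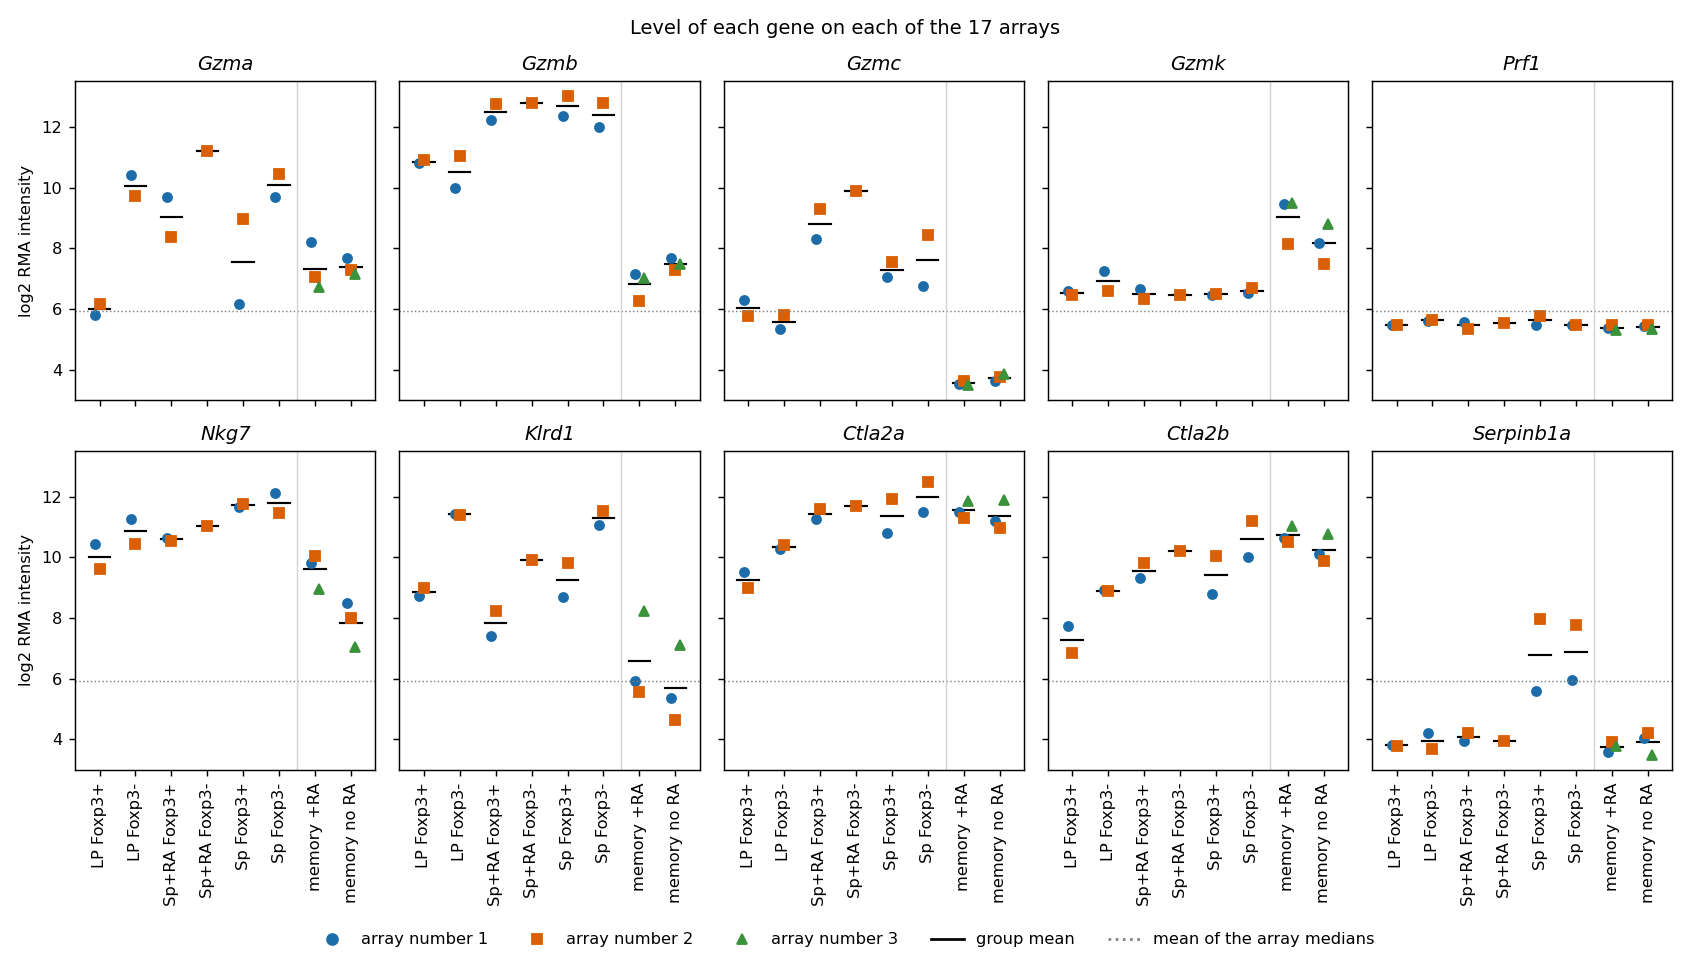
Log2 RMA intensity of the 10 genes on each of the 17 arrays, by group. Points are arrays marked by array number, bars are group means, and the dotted line is the mean of the array medians. Gzma and Klrd1 sit lower in Foxp3+ than in Foxp3- cells of each co-culture, Gzmb and Gzmc sit lowest in LP-DC among co-cultures, and Nkg7 is higher in memory cells with RA.

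Foxp3+ cells were set against the Foxp3- cells of the same cultures to see which cytotoxic genes differ with the sort. Gzma and Klrd1 fell in Foxp3+ cells, and Gzmb, which is also a granzyme, did not pass in any of the 3 cultures. Gzma encodes granzyme A, a tryptase. On LP-DC its level was 5.80 and 6.18 in Foxp3+ cells, against 10.42 and 9.72 in Foxp3- cells. On Sp-DC+RA it was 9.72 and 8.38 in Foxp3+ cells, against 11.22 in the single Foxp3- array. On Sp-DC it was 6.17 and 8.97 in Foxp3+ cells, against 9.69 and 10.47 in Foxp3- cells. The groups did not overlap in any culture, Foxp3+ cells were lower in all 5 pairs of arrays with the same number, and the Foxp3+ arrays of Sp-DC lay furthest apart. Averaged over the cultures, the difference was -2.86 ± 0.47 in log2, a 7.25-fold lower level (adjusted p = 0.00698, and 0.0482 unpaired). Over the alternatives the paired adjusted p ranged from 0.000213 to 0.0363, and the unpaired one reached 0.137.

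Klrd1 showed a similar split with less spread. On LP-DC its level was 8.73 and 8.9997 in Foxp3+ cells, against 11.44 and 11.42 in Foxp3- cells. On Sp-DC+RA it was 7.42 and 8.24 in Foxp3+ cells, against 9.91 in Foxp3- cells, and on Sp-DC 8.69 and 9.82 in Foxp3+ cells, against 11.07 and 11.53 in Foxp3- cells. The groups did not overlap in any culture, and the mean difference was -2.14 ± 0.15, or 4.41-fold lower (adjusted p = 0.000215, and 0.0164 unpaired). Its paired adjusted p stayed at or under 0.00517 in all paired alternatives run. Unpaired, the call ended without LP-DC Foxp3+ array 1 (0.0514), without Sp-DC Foxp3- array 1 (0.0554) and with one model over all 17 arrays (0.127). The unpaired Gzma call ended when any of 8 arrays was left out, with adjusted p of 0.0737 to 0.137: each LP-DC array, each Sp-DC+RA Foxp3+ array and each Sp-DC Foxp3- array.

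These 2 genes were the members that passed in the mean over cultures, 2 of 9 tested, in either fit. Over all genes tested, 4.79% passed when paired and 0.920% when unpaired. Ctla2b was -1.09 ± 0.27 (adjusted p = 0.0523) and Nkg7 -0.53 ± 0.15 (0.0786). Gzmb was 0.22 ± 0.12, Gzmc -0.20 ± 0.25, Gzmk -0.19 ± 0.12, Ctla2a -0.59 ± 0.21 and Serpinb1a 0.09 ± 0.37, with adjusted p from 0.193 to 0.969. The median log2 difference was -0.53 over the 9 members and -0.02 over all 11846 genes.

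Within single cultures the paired fit called Gzma and Klrd1 on LP-DC and Klrd1 on Sp-DC. The share of all genes called was 3.58% on LP-DC, 0.0253% on Sp-DC+RA and 0.557% on Sp-DC, and unpaired it was 0.135% on LP-DC and 0 in the other cultures, where 198 and 419 genes had an unadjusted p under 0.05. On LP-DC, Gzma in Foxp3+ cells lay near the array median (-0.12 and 0.25 in log2 from it), so no fold is given. These arrays also enter the mean over cultures. The Gzma difference on LP-DC was -4.08 ± 0.74 in log2 (adjusted p = 0.0155, and 0.115 unpaired). That call ended without LP-DC Foxp3- array 1 (0.107), Foxp3+ array 1 (0.0900) or Foxp3+ array 2 (0.0791). Klrd1 on LP-DC was -2.56 ± 0.24 (adjusted p = 0.00112, and 0.0548 unpaired), and on Sp-DC -2.04 ± 0.24 (0.0192). The Sp-DC call ended without either Foxp3- array (0.211 and 0.121), without Foxp3+ array 1 (0.0644) and without either Sp-DC+RA Foxp3+ array (0.0517 and 0.0511). On Sp-DC+RA, with 1 Foxp3- array, no member passed and Klrd1 was -1.82 ± 0.30 (0.214). Whether the sort difference itself differed between cultures was tested as an interaction, LP-DC minus Sp-DC and Sp-DC+RA minus Sp-DC. Limma called 0 of the 11846 genes in either fit, a share of 0. At an unadjusted p under 0.05 there were 434 and 231 genes when paired and 108 and 55 when unpaired, among them 1 member, Nkg7 in the paired LP-DC term (-0.76 ± 0.33).

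**Figure D2:**
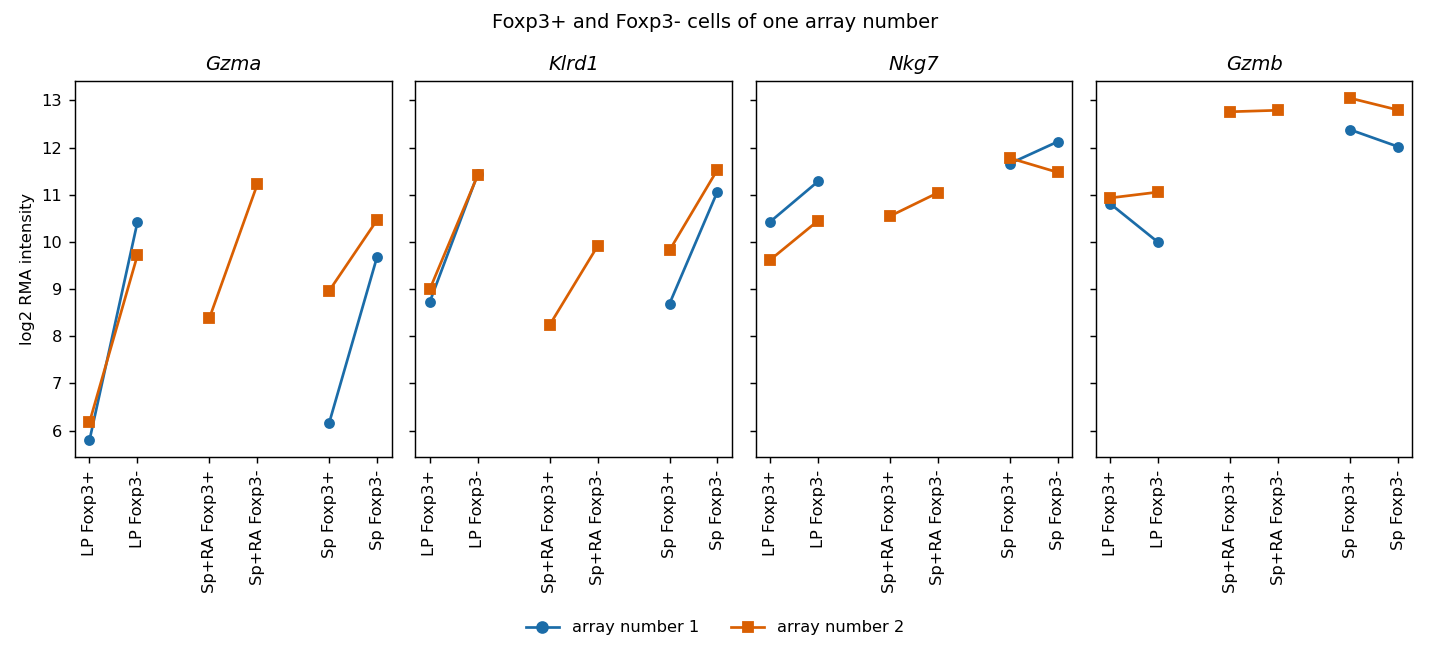
Log2 RMA intensity of Gzma, Klrd1, Nkg7 and Gzmb in Foxp3+ cells (left of each pair) and Foxp3- cells (right) of one culture, with a line for each array number that has both. All 5 lines of Gzma and of Klrd1 show lower Foxp3+ cells, and the lines of Gzmb go both ways.

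Other genes of the cytotoxic programme were split by the sort. Tbx21, the T-bet transcription factor of Th1 and cytotoxic cells, fell in Foxp3+ cells by 1.07 ± 0.20, and Il2rb, the beta chain of the IL-2 and IL-15 receptors, rose by 0.82 ± 0.10. They were the 2 of 14 tested regulators that passed, where 4.79% of all genes did. Of 7 tested NK-type receptors, Fcgr3, an Fc receptor for IgG, was -1.25 ± 0.21 and Cd244a, a SLAM family receptor, was -0.80 ± 0.13, and both passed. Of 17 granule genes, the cathepsin gene Ctsl rose by 1.02 ± 0.11 and Stx11, a syntaxin needed for granule fusion, rose by 0.64 ± 0.11. On LP-DC alone, Ifng fell by 2.03 ± 0.39 (adjusted p = 0.0218), while Ctsl, Stx11, Rab27a, a granule-docking GTPase, and Il2rb rose. The clade B serpin list had 1 tested gene, which did not pass. Unpaired, 0 of the 14 regulators, 0 of the 7 receptors and 0 of the 17 granule genes passed in the mean over cultures (limma), so each of these calls rests on the block.

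In the sort, a gamma-delta T cell marker moved with Gzma and Klrd1. Trgv1, a T cell receptor gamma segment, fell in Foxp3+ cells by 2.24 ± 0.23 (adjusted p = 0.000983), while Sox13, the other measured gene of that list of 2, did not pass. The summed linear level of both was 261 to 346 in Foxp3+ and 706 to 2001 in Foxp3- cells on LP-DC. It was 427 to 1047 in Foxp3+ cells and 1693 in the Foxp3- array on Sp-DC+RA, and 243 to 354 in Foxp3+ and 389 to 1863 in Foxp3- cells on Sp-DC. Both genes were above the median on all 17 arrays. In the CD8 list Cd8a fell on LP-DC in Foxp3+ cells (adjusted p = 0.0205). Cd8a and Cd8b1 were both under the array median on the LP-DC Foxp3+ arrays, so no size is given. Their summed level was 66.2 to 77.3 in Foxp3+ and 83.2 to 169 in Foxp3- cells. The Trgv1 and Cd8a calls were lost without the block (adjusted p = 0.240 for Trgv1). The part of these cells in the Gzma and Klrd1 differences was not tested. For NK cells, 4 of the 5 measured markers, Ncr1, Klre1, Klra8 and Tyrobp, were below the array median in all groups. The fifth, Eomes, was above it on all 11 co-culture arrays and was 0.67 ± 0.17 in the sort, higher in Foxp3+ cells without passing (0.0508), opposite to Klrd1.

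Sp-DC cultures with and without RA were compared to see what the added RA changed. In Foxp3+ cells Klrd1 fell with RA and no other member passed, and in Foxp3- cells none did. Klrd1 in Foxp3+ cells read 7.42 and 8.24 with RA, against 8.69 and 9.82 without RA. The groups did not overlap, and the difference was -1.43 ± 0.24, or 2.69-fold lower (adjusted p = 0.0232). This call ended without either RA array (0.208 and 0.102), without Sp-DC Foxp3+ array 2 (0.171) and without either Sp-DC Foxp3- array (0.0604 and 0.0597). In Foxp3- cells Klrd1 read 9.91 with RA on its single array, against 11.07 and 11.53 without RA (-1.65 ± 0.30, 0.0806). The paired fit called 1.12% of all genes in Foxp3+ cells and 0.262% in Foxp3- cells, and the unpaired fit 0.101% and 0.00844%, with no member.

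Nkg7 and Serpinb1a were the next members below the RA-free level. Nkg7 in Foxp3+ cells was 10.65 and 10.55 with RA, against 11.66 and 11.78 without RA (-1.12 ± 0.23, adjusted p = 0.0586), without overlap. Serpinb1a read 3.95 and 4.20 with RA, against 5.58 and 7.96 without RA (-2.70 ± 0.59, 0.0711). It was near the floor with RA and had passed the filter through its Sp-DC arrays alone. Gzmc, a granzyme of activated mouse T cells, lay on the other side of 0. Its level in Foxp3+ cells was 8.33 and 9.31 with RA, against 7.04 and 7.54 without RA (1.53 ± 0.39, 0.120), and in Foxp3- cells 9.89 with RA, against 6.77 and 8.44 without RA (1.98 ± 0.49, 0.207). Neither pair overlapped and neither passed. In Foxp3+ cells Gzmb was -0.22 ± 0.20, Gzmk 0.01 ± 0.19, Ctla2a 0.07 ± 0.33 and Ctla2b 0.16 ± 0.43. Gzma was 1.48 ± 0.74 in Foxp3+ and 0.95 ± 0.93 in Foxp3- cells, and none of these passed.

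Among the regulators, Eomes, a T-box factor of cytotoxic T and NK cells, fell with RA in both sorts. It averaged 7.43 with RA and 9.65 without RA in Foxp3+ cells (-2.22 ± 0.26, adjusted p = 0.00405). In Foxp3- cells it was 7.003 with RA and averaged 9.34 without RA (-2.63 ± 0.33, 0.0136). Prdm1, which encodes Blimp-1, fell in Foxp3+ cells by 1.02 ± 0.18 (0.0316). No other gene of the regulator, granule, receptor or serpin lists passed in either sort. All 3 calls were lost without the block (Eomes adjusted p = 0.217 in Foxp3+ and 0.620 in Foxp3- cells). Eomes is also the 1 tested gene of the NK marker list, and in Foxp3+ cells it fell along with Klrd1. The summed linear level of the 5 NK markers was 230 to 356 with RA and 860 to 966 without RA in Foxp3+ cells. In Foxp3- cells it was 221 with RA and 656 to 895 without RA. Nearly all of the gap in these sums was Eomes, and Ncr1, Klre1, Klra8 and Tyrobp were below the median. The gamma-delta marker Trgv1 lay opposite to Klrd1 here. Within array numbers it was higher with RA by 1.93 and 1.28 in Foxp3+ cells and by 2.48 in Foxp3- cells. The part of NK and gamma-delta cells in the Klrd1 result was not tested.

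Gut and spleen DC were compared at the same TGFbeta dose, with no RA added to either. Cells from LP-DC cultures had less Gzmb than cells from Sp-DC cultures in both sorts, and less Ctla2a, Ctla2b and Nkg7 in Foxp3+ cells. Gzmb encodes granzyme B, which cleaves after aspartate and triggers apoptosis. In Foxp3+ cells it read 10.81 and 10.93 on LP-DC, against 12.38 and 13.05 on Sp-DC, and in Foxp3- cells 9.99 and 11.06 on LP-DC, against 12.02 and 12.80 on Sp-DC. Neither pair of groups overlapped. The differences were -1.84 ± 0.20 (3.59-fold lower, adjusted p = 0.0124) in Foxp3+ and -1.89 ± 0.20 (3.69-fold lower, 0.0121) in Foxp3- cells. The Foxp3+ call ended without LP-DC Foxp3+ array 2 (0.114) or Sp-DC Foxp3+ array 2 (0.107), and the Foxp3- call without Sp-DC Foxp3- array 1 (0.0770) or array 2 (0.322).

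Ctla2a in Foxp3+ cells was 9.52 and 8.998 on LP-DC, against 10.80 and 11.94 on Sp-DC (-2.11 ± 0.33, adjusted p = 0.0271). Ctla2b was 7.72 and 6.83 on LP-DC, against 8.78 and 10.04 on Sp-DC (-2.13 ± 0.43, 0.0464). The probe set annotated to both genes read 8.70 and 8.01 on LP-DC, against 10.16 and 11.20 on Sp-DC. All 3 probe sets had LP-DC arrays below Sp-DC arrays, but they are not separate observations. A probe set of one gene may also detect the other, since the genes are alike in sequence. Nkg7 was 10.43 and 9.62 on LP-DC, against 11.66 and 11.78 on Sp-DC (-1.70 ± 0.23, 0.0211). Serpinb1a was 3.81 and 3.78 on LP-DC, against 5.58 and 7.96 on Sp-DC. It passed the filter through Sp-DC arrays alone and lay under the array median on LP-DC, so its call (adjusted p = 0.0464) is no independent support and no size is given. Its second probe set read 2.65 and 2.72 on LP-DC, against 3.04 and 4.68 on Sp-DC, and the arrays numbered 2 carried most of both gaps. Each of these 4 calls ended without LP-DC Foxp3+ array 2 (adjusted p 0.291 for Ctla2a, 0.412 for Ctla2b, 0.291 for Nkg7, 0.427 for Serpinb1a). Each also ended without Sp-DC Foxp3+ array 2 (0.287, 0.435, 0.258 and 0.419 in the same order) and without either Sp-DC Foxp3- array (0.0551 to 0.0735). The calls of Ctla2a, Ctla2b and Serpinb1a ended without either Sp-DC+RA Foxp3+ array as well (0.0550 to 0.0769).

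In Foxp3- cells Gzmc also passed, with both LP-DC arrays under the array median, so no size is given. It read 5.33 and 5.81 on LP-DC, against 6.77 and 8.44 on Sp-DC (adjusted p = 0.0498). This value lay at the threshold, and the call ended under 10 of the alternatives, with adjusted p up to 0.428, among them leaving out either LP-DC Foxp3- array (0.0762 and 0.279), either Sp-DC Foxp3- array (0.0776 and 0.428) or either Sp-DC+RA Foxp3+ array (0.0681 and 0.0679). Ctla2a (-1.63 ± 0.33, 0.0541), Ctla2b (-1.71 ± 0.43, 0.0834) and Nkg7 (-0.93 ± 0.23, 0.0823) missed the threshold in Foxp3- cells. A difference between the sorts in these LP-DC effects was tested through the interaction above, where no gene passed. The paired fit called 5 of 9 members in Foxp3+ and 2 of 9 in Foxp3- cells, where 1.81% and 0.861% of all genes were called. The 5 count Serpinb1a, whose call is no independent support, and the 2 count Gzmc, which lay under the median on LP-DC. The unpaired fit called 0 genes in both, a share of 0, with 947 and 794 genes, 6 members among them each time, at an unadjusted p under 0.05.

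LP-DC cells also had less Gzmb and Gzmc than cells of the Sp-DC+RA culture. These comparisons use the same LP-DC arrays as the ones above, and the same Sp-DC+RA arrays as the RA comparison. In Foxp3+ cells Gzmb was 10.81 and 10.93 on LP-DC, against 12.23 and 12.76 on Sp-DC+RA (-1.62 ± 0.20, adjusted p = 0.00368). Gzmc was 6.31 and 5.77 on LP-DC, against 8.33 and 9.31 on Sp-DC+RA (adjusted p = 0.00871). In Foxp3- cells Gzmc was 5.33 and 5.81 on LP-DC, against 9.89 on the single Sp-DC+RA array (adjusted p = 0.00833). Both LP-DC arrays lay under the array median, so no fold is given. No pair of groups overlapped. Among LP-DC arrays Gzmc was above the array median on Foxp3+ array 1 alone (by 0.40 in log2), so no size is given in Foxp3+ cells either. Gzmc passed the filter through the spleen-DC arrays. Its calls, counted among the members called below, are therefore no independent support. Gzmb in Foxp3- cells was -1.95 ± 0.25 (0.0101), a call that held in every paired alternative run, although the single Sp-DC+RA array it rests on could not be left out.

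Ctla2a (-2.18 ± 0.33, adjusted p = 0.0119) and Ctla2b (-2.29 ± 0.43, 0.0322) fell on LP-DC in Foxp3+ cells here too. The CD8 marker Cd8a fell in the same comparison (adjusted p = 0.0278, and 0.683 unpaired). The summed level of Cd8a and Cd8b1 was 66.2 to 77.3 on LP-DC and 102 to 148 on Sp-DC+RA. Both genes were below the median on the LP-DC Foxp3+ arrays, so no size is given, and Cd8b1 was below it throughout. The gamma-delta marker Trgv1 was also lower on LP-DC within array numbers (-1.96 and -1.165 in Foxp3+ cells, -1.41 in Foxp3- cells). The part of CD8 and gamma-delta T cells in these results was not tested. Klrd1 lay the other way: in Foxp3- cells it was 11.44 and 11.42 on LP-DC, against 9.91 on Sp-DC+RA, 3.43-fold higher (1.78 ± 0.30, 0.0408). The Foxp3- group means themselves differed by 1.51, or 2.85-fold, and the rest came from the block. In Foxp3+ cells Klrd1 was 8.73 and 8.9997 on LP-DC, against 7.42 and 8.24 on Sp-DC+RA (1.03 ± 0.24, 0.0670). Without Sp-DC+RA Foxp3+ array 1 or array 2, all 4 Foxp3+ calls ended, with adjusted p of 0.0544 to 0.216, and without LP-DC Foxp3+ array 2 those of Ctla2a (0.0794) and Ctla2b (0.222) did. In Foxp3- cells the Gzmc call ended without LP-DC Foxp3- array 2 (0.0621). The Klrd1 call ended without either Sp-DC+RA Foxp3+ array (0.0693 and 0.0698) or either Sp-DC Foxp3- array (0.0930 and 0.0920), and also with 32 added before log2 (0.0520), with probe sets averaged (0.0591) and with each probe set tested (0.0550). The paired fit called 4 and 3 of 9 members, against 1.87% of all genes in Foxp3+ and 0.523% in Foxp3- cells. Unpaired, 0 members were called, with 0.0929% of all genes in Foxp3+ cells and a share of 0 in Foxp3- cells, and 6 and 4 members had an unadjusted p under 0.05.

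Of the other granule genes, Cst7, which encodes the cathepsin inhibitor cystatin F, fell on LP-DC in Foxp3+ cells against Sp-DC (-1.23 ± 0.24) and against Sp-DC+RA (-1.17 ± 0.24). Stx11 rose in both (1.15 ± 0.18 and 1.14 ± 0.18). Ctsl (1.11 ± 0.18) and Rab27a (0.94 ± 0.13) rose against Sp-DC+RA. Against Sp-DC, 2 of 14 regulators passed in Foxp3+ cells, where 1.81% of all genes did. They were Id2, an inhibitor of E proteins (-1.65 ± 0.30), and Prdm1 (-0.86 ± 0.18), and both fell. Eomes rose against Sp-DC+RA (1.81 ± 0.26). In Foxp3- cells the SLAM family receptor Slamf7 fell against Sp-DC (-1.66 ± 0.30). None of these genes passed without the block.

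A dendritic cell marker moved with Gzmb. H2-Ab1, an MHC class II gene, was lower on LP-DC in Foxp3- cells than on Sp-DC (-1.28 ± 0.21, adjusted p = 0.0403) and on Sp-DC+RA (-1.47 ± 0.26, 0.0482). It was the 1 of 7 tested dendritic cell markers that passed, where 0.861% of all genes did against Sp-DC. The share against Sp-DC+RA is given above. Without the block, 0 of 7 passed. The summed linear level of the 11 markers measured was 1562 to 1567 on LP-DC, 1819 to 2763 on Sp-DC+RA and 1950 to 2717 on Sp-DC in Foxp3+ cells. In Foxp3- cells it was 1189 to 1360 on LP-DC, 2637 on Sp-DC+RA and 1834 to 2626 on Sp-DC. Itgax, Itgam, Xcr1 and H2-Aa were below the array median on all 17 arrays. The part of dendritic cells in the Gzmb result was not tested.

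RA was added to memory CD4 cells in the second experiment. Nkg7, Klrd1 and Gzmk rose with RA, and Gzmb fell. Nkg7 was 9.82, 10.06 and 8.97 with RA, against 8.50, 7.9997 and 7.06 without RA. The groups did not overlap, the arrays numbered 3 were lowest in both, and the difference was 1.76 ± 0.16, a 3.39-fold higher level (adjusted p = 0.000336). Over the alternatives its paired adjusted p was at most 0.0164.

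Klrd1 was 5.94, 5.55 and 8.22 with RA, against 5.35, 4.64 and 7.11 without RA. The groups overlapped because both arrays numbered 3 were high, while RA was higher within each number (0.87 ± 0.14, adjusted p = 0.00726), and the call held in the 12 paired alternatives that tested it. Klrd1 was above the median on the arrays numbered 3 alone, so it was not tested when either or both were left out. Gzmk, a tryptase-type granzyme of memory T cells, was 9.48, 8.16 and 9.50 with RA, against 8.18, 7.50 and 8.81 without RA. These groups overlapped too, with RA higher in all 3 numbers (0.88 ± 0.16, 0.0114). Gzmb was 7.16, 6.26 and 7.03 with RA, against 7.68, 7.29 and 7.49 without RA, with no overlap (-0.67 ± 0.15, 0.0362). The Gzmk call ended without RA array 3 (0.0821) or no-RA array 3 (0.0806). The Gzmb call ended without RA array 2 (0.0672) or array 3 (0.142), or no-RA array 2 (0.0677) or array 3 (0.139), and with each probe set tested (0.0586).

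Gzma did not differ beyond its error (-0.04 ± 0.18), nor did Ctla2a (0.19 ± 0.14), and Ctla2b was 0.47 ± 0.14 (adjusted p = 0.0953). Of the 7 members tested, 4 passed in the paired fit, where 4.94% of all genes did. In the unpaired fit none passed, against 0.0829% of all genes, and 1 member, Nkg7, had an unadjusted p under 0.05.

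Granule genes outside the members moved both ways with RA in memory cells, 5 of 17 up and 3 down, where 4.94% of all genes passed. Unpaired, 0 of the 17 granule genes, 0 of the 15 regulators, 0 of the 6 receptors and 0 of the 2 gamma-delta markers passed, so each of these calls rests on the block. Ctsw, the cathepsin W gene of cytotoxic cells, rose by 1.36 ± 0.13, Fasl, the death ligand, by 1.32 ± 0.17 and Serpinb9, which encodes an inhibitor of granzyme B, by 1.14 ± 0.17. Rab27a (-0.81 ± 0.15), Stx11 (-0.73 ± 0.13) and Ctsl (-0.73 ± 0.17) fell. Of 15 regulators 3 rose and 4 fell, among them Stat4, a signal transducer of IL-12 (0.99 ± 0.13), Ifng (-1.20 ± 0.19), Prdm1 (-1.08 ± 0.17) and Tbx21 (-0.61 ± 0.13). Slamf7 was the 1 of 6 tested NK-type receptors that passed, and it fell by 0.92 ± 0.14. Eomes averaged 6.36 with RA and 6.53 without RA and did not pass. The gamma-delta marker Trgv1 rose by 1.32 ± 0.14 (adjusted p = 0.000737), with summed levels of Trgv1 and Sox13 of 366 to 847 with RA and 199 to 532 without RA. The part of gamma-delta cells in the Nkg7, Klrd1 and Gzmk results was not tested, and of the 5 NK markers Ncr1, Klre1, Klra8 and Tyrobp were below the median on all 6 arrays, while Eomes was above it on 2 of 3 arrays of each group.

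The RA effect in memory cells was set against that in Foxp3+ cells of the Sp-DC cultures in one model over all arrays. Nkg7 and Klrd1 differed between the experiments: both were higher with RA in memory cells, while in Foxp3+ cells Klrd1 fell and Nkg7 was lower without passing. The difference of the effects was 2.89 ± 0.30 for Nkg7 (adjusted p = 0.000490) and 2.29 ± 0.29 for Klrd1 (0.00180) with array numbers as a block. They were 2 of the 7 members tested, and 1.41% of the 11432 genes passed. Without the block neither passed (0.267 for Nkg7), against 0.0525% of genes. The experiments also differ in culture time, stimulus and TGFbeta dose, which cannot be told apart from the cell type here. Klrd1 in memory cells was above the median on the arrays numbered 3 alone.

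**Figure D3:**
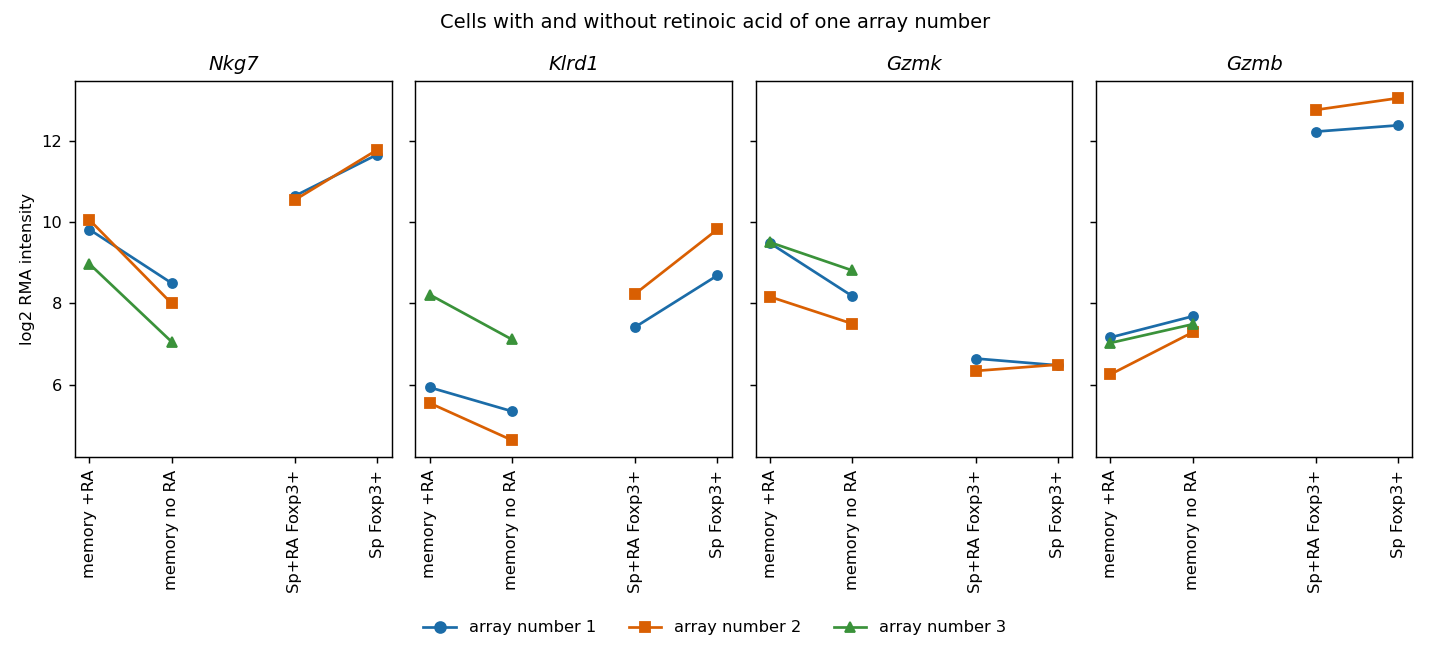
Log2 RMA intensity of Nkg7, Klrd1, Gzmk and Gzmb with RA (left of each pair) and without RA (right), in memory cells and in Foxp3+ cells of Sp-DC cultures, with a line for each array number. Nkg7 and Klrd1 are higher with RA on all 3 lines of memory cells and lower with RA on both lines of Foxp3+ cells.

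**Figure D4:**
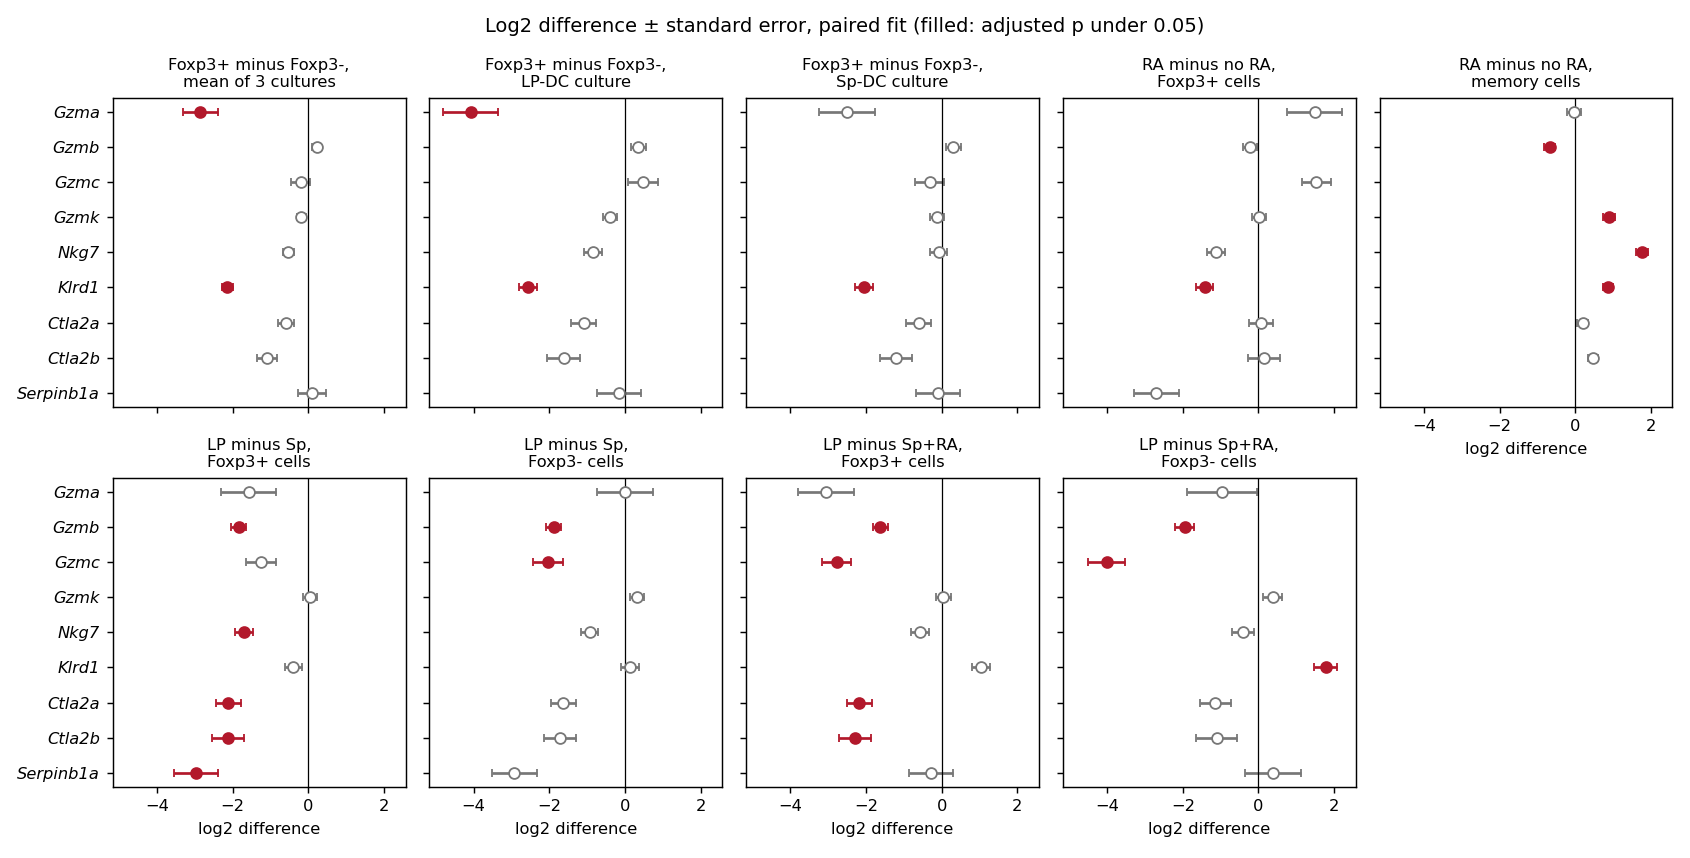
Log2 difference ± standard error of the 9 tested members in 9 comparisons of the paired fit, with the first-named group minus the second. Filled points have an adjusted p under 0.05: Gzma and Klrd1 in the sort, Gzmb wherever LP-DC cells are compared with spleen-DC cells, further members in some of these, Klrd1 with RA in Foxp3+ cells, and Nkg7, Klrd1, Gzmk and Gzmb with RA in memory cells.

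Within the co-culture the members did not share one order of levels. Gzma group means ran from 5.99 in LP-DC Foxp3+ cells to 11.22 in the Sp-DC+RA Foxp3- array, and the Foxp3- cells of LP-DC (10.07) and Sp-DC (10.08) did not differ beyond their spread. Gzmb ran from 10.52 in LP-DC Foxp3- cells to 12.79 in the Sp-DC+RA Foxp3- array, with the 4 spleen-DC groups within the spread of their arrays. Gzmk stayed between 6.34 and 7.27 on all 11 co-culture arrays. Over the means of all 8 groups, the genes outside the members most like Gzma were Gm26588 (r = 0.959), Usp48, Cyp4f16, Clasrp and Carf. Those most like Gzmb were Gm11110 (r = 0.997), Tmem258, H2-Ab1, G2e3 and Ndufv3, and those most like Ctla2a were Rps2 (r = 0.975), Slc31a1, Ogfod3, Scarb1 and Tstd3. Each was the highest of 11425 genes compared, and for Gzmb the 8 means are dominated by the gap between the experiments.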

How the data were processed

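Transcript levels of 10 cytotoxic genes were read from 17 Affymetrix arrays of sorted mouse CD4 T cells in 8 groups. The deposited table holds linear intensity values that are RMA values per the submitters' processing notes. No source used here gives the RMA version or says if both experiments were normalized as one set. Per the labels' protocols the RNA was amplified in a pair of rounds before labelling, and its effect on the differences was not tested.

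Log2 of each intensity was taken with no pseudocount and no further normalization. Only the 34958 probe sets with a single gene symbol were used, out of 45101 (932 carry several symbols, 9211 none). A gene's brightest probe set by mean log2 represents it, with cross-hybridizing sets passed over where another exists. The filter, a level over the array median on 2 or more arrays, left 11846 genes for the co-culture, 12062 for memory cells and 11432 for the joint model. The number of arrays limits the precision.

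Limma 3.58.1 in R 4.3.3 was fitted to each experiment, with 1 coefficient per group, empirical Bayes and p-values adjusted by Benjamini-Hochberg across every tested gene (threshold 0.05). Both fits were run on data simulated with array-number effects taken from the block model, so that check cannot decide between them. Residuals of arrays with the same number correlated at 0.446 to 0.752 over 10 pairs of co-culture groups and, for memory cells, at 0.654 to 0.940 over 3 numbers. The labels' array numbers were therefore taken to pair the arrays. Residual degrees of freedom were 5 and 4 unpaired (priors 3.19 and 2.59) and 4 and 2 paired (priors 5.56 and 7.23).

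The members and the gene lists were chosen with earlier results of these data known. Named genes are the 10 members, up to 6 passing genes of each list per comparison by size, the cell type markers, and the 5 genes most like Gzma, Gzmb and Ctla2a; of the named list genes the text gives a part. The settings varied were the scaling (quantile, median-centring), the filter (none, or the 60th percentile) and a constant of 32 added before log2. Also varied were averaging of a gene's probe sets, each probe set tested, one fit over all arrays, the block, and the omission of each array. These settings rerun with the block, both memory arrays numbered 3 left out, and the joint model of both experiments were added after the data were seen. The title and the sort after culture gave each array its group, because the source names of some Foxp3+ arrays describe the starting Foxp3- cells. A second Foxp3- array of the Sp-DC+RA culture was not analysed here. Promoter sequences are from RefSeq, build GRCm38.p6.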

Additional observations from a re-analysis of the deposited data

Results flagged for a closer look

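The RA effect on Nkg7 differed between memory cells and Foxp3+ co-culture cells in the joint model with array numbers as a block, by 2.89 in log2 (adjusted p = 0.000490, and 0.267 without the block). It was higher with RA in 3 of 3 memory array numbers and lower with RA in 2 of 2 Foxp3+ numbers. The same difference for Klrd1 was 2.29 (adjusted p = 0.00180, and 0.9997 without the block), with the same counts of array numbers. On the memory arrays numbered 1 and 2, however, Klrd1 lay under the array median.

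Nkg7 was also set against the RA effect in Foxp3- cells, where the single array with RA lay below both arrays without RA, while all memory arrays with RA lay above all those without. In the unpaired fit the effects differed by 2.52 in log2, and this difference was not tested. No group has 4 or more arrays, so no search for outlying arrays was made.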

How the results depend on the processing

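No called value changed sign. Of 24 member calls in the paired fit, 6 were kept in every paired alternative run: Gzma and Klrd1 in the mean sort difference, Klrd1 in the LP-DC sort, Gzmb between LP-DC and Sp-DC+RA in Foxp3- cells, and Nkg7 and Klrd1 with RA in memory cells. The Sp-DC+RA Foxp3- array could not be left out, and Klrd1 in memory cells was not tested without either or both arrays numbered 3, so these calls were not tried there. Unpaired, neither of the 2 calls was kept throughout. In the unpaired mean sort difference, 1 member in place of 2 was called with no filter, with 32 added before log2, with probe sets averaged, with each probe set tested, and one fit over all arrays. In the unpaired LP-DC sort, 1 in place of 0 was called under quantile normalization, the 60th percentile filter and the mean of all probe sets. The replicate block took the unpaired counts of 0 to 2 (sort LP-DC), 1 (sort Sp-DC), 1 (RA in Foxp3+), 5 and 2 (LP-DC against Sp-DC in Foxp3+ and Foxp3-), 4 and 3 (against Sp-DC+RA) and 4 (RA in memory), and left the mean sort difference at 2. The numbers of calls over all genes were higher with the block in all comparisons but the 2 interaction terms, which stayed at 0. Paired, one fit over all arrays called 1 in the Sp-DC+RA sort, 2 for RA in Foxp3+ and 1 for RA in Foxp3- cells. LP-DC against Sp-DC gave 3 in Foxp3+ under log2 plus 32, the mean of all probe sets and each probe set, and 1 in Foxp3- cells under these and median-centring. Without both memory arrays numbered 3, 1 member (Nkg7) was called unpaired and 1 paired, with Klrd1 not tested. Leaving out single arrays gave 0 to 2 unpaired and 2 to 4 paired for the mean sort difference, 0 to 2 unpaired and 1 to 4 paired for LP-DC, 0 to 1 paired for Sp-DC+RA and 0 to 2 paired for Sp-DC. For RA it gave 0 to 3 paired in Foxp3+, 0 to 1 in Foxp3- and 1 to 4 in memory cells. LP-DC against Sp-DC gave 0 to 6 paired in Foxp3+ and 0 to 5 in Foxp3- cells, and against Sp-DC+RA 0 to 6 and 2 to 3. A lone array left in a group is assumed to vary like the other groups. The cause of these changes was not tested. Signals of Prf1, and of Serpinb1a and Gzmc where they lie under the array median, limit what can be read. So do those of Gzma in LP-DC Foxp3+ cells, near the array median, and of Klrd1 in memory cells, under it on the arrays numbered 1 and 2.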
